A study of Mus musculus with 3 samples.

Results

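The genes described here encode the proteins of the cytosolic ribosome, read in sorted cap mesenchyme of the embryonic mouse kidney. Members were all probe sets with a single gene symbol that began with Rpl or Rps followed by a number and at most 1 letter, or that was Rplp0, Rplp1, Rplp2 or Rpsa. This gave 100 of 45037 probe sets, for 46 of 18193 genes with a single-symbol probe set. Of these genes 23 had 1 probe set and 23 had several, up to 6.

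The data comprised 3 arrays in 1 group and no control group. Each array held RNA of a pool of about 5 to 10 kidneys from E15.5 CD-1 embryos (Theiler stage 23, sex unknown) that carried Tg(Six2-EGFP/cre)1Amc, a transgene in which Six2 sequences drive EGFP and cre. Fluorescent cells were sorted from trypsin-dissociated kidneys, and their RNA went through 2 rounds of amplification before labelling. The RNA is that of a sorted population, so fewer cells of a type and less RNA per cell cannot be told apart. The arrays are called pools 1 to 3 after the numbers in their titles, and the labels do not say whether the pools came from separate litters. The p-values therefore measure the spread between these 3 arrays, which may be technical. No cells without the transgene and no other sorted fraction were analysed here, so the design allows a comparison with array background and a description of how the pools differ.

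The ribosome is built from a small subunit, which reads the mRNA, and a large subunit, which joins the amino acids. The mRNAs of these proteins are among the most abundant in growing cells. Many of them begin with a C followed by a run of pyrimidines, the 5′ terminal oligopyrimidine tract, through which mTOR signalling adjusts their translation. Mammalian genomes hold many processed pseudogenes of these genes, and their sequences can match the same probes.

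Windows around the annotated start were examined because that tract is the sequence feature for which the family is known. Of the 46 member genes, 40 had promoter sequences in the RefSeq table (build GRCm38.p6), with 48 annotated starts in all. The sequences below run from 15 bases before to 15 bases from the start, on the gene's own strand, and capitals mark a C followed by 4 or more bases that are each C or T, beginning within 5 bases of the start. Shown first are strongly detected members that hold the run, then Rps27 and its paralog Rps27l, then 3 members without the run, of which Rplp0 was bright and the others were not above background.
Rplp2 (chr7:141447636-141447665, plus strand): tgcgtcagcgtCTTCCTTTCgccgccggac
Rpl35 (chr2:39005117-39005146, minus strand): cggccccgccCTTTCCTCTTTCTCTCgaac
Rpl7a (chr2:26910792-26910821, plus strand): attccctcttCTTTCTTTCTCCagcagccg
Rps6 (chr4:86857353-86857382, minus strand): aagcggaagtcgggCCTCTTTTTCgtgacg
Rps18 (chr17:33955651-33955680, minus strand): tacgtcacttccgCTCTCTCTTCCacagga
Rps27 (chr3:90213634-90213663, minus strand): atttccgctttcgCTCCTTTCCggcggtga
Rps27l (chr9:66946071-66946100, plus strand): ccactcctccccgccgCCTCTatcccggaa
Rplp0 (chr5:115559452-115559481, plus strand): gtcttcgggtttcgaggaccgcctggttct
Rps16 (chr7:28350674-28350703, plus strand): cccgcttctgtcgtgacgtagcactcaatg
Rpl39l (chr16:10170213-10170242, plus strand): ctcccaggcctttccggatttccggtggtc
Among those shown the marked run was longest in Rpl35, at 16 bases, counted from no more than 5 bases before the start. In Rplp2, Rpl35 and Rpl7a the run of C or T continued before the mark, so this order depends on the search window. Where a run was marked, it began before the annotated start in all but Rps27l. Rps27l has another annotated start, where the run was absent. In Rpl39l such a run began just before the search window, and in Rps16 farther before it, so neither was marked. Of the member genes above background with a promoter sequence, 19 held the run and 18 did not.

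The run was found at 20 of the 48 member starts (41.7%), in 19 of 40 genes, against 6027 of all 32851 starts in the table (18.3%). On the opposite strand of the same bases it was found at 7 member starts (14.6%) and at 20.4% of all starts. The share of members was thus above that of the table on the coding strand and below it on the other strand, with no test made. In the whole window of 300 bases, searched on both strands, CCGGAAG, which ETS family factors bind, was present at 20 member starts (41.7%) against 8.86% of all. GGGCGG, a binding sequence of Sp1, was present at 24 (50%) against 35.7%, and TATAAA at 5 (10.4%) against 13.6%. AAGATGGCG, a form of the YY1 site, was present at 2 member starts (4.17%) against 1.40% of all, and CACGTG, the E-box of Myc, at 5 (10.4%) against 7.15%. CTTTCC, counted anywhere in that window whether or not it lay in the pyrimidine run, was present at 22 (45.8%) against 26.6%. These shares describe letters in RefSeq sequence, were not matched for base composition, and include several starts of some genes.

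Whole-array values were as follows. Every array had been scaled to a trimmed mean signal of 1500, and the highest signal was 75402 in pool 1, 139283 in pool 2 and 75242 in pool 3. The background threshold lay at signals of 197, 186 and 201, the 95th percentile on each array of 150 probe sets for genes of smell, taste, hair and mucosal defence. The log2 ratio of 3′ to 5′ control probe sets was 4.36, 5.05 and 4.08 for Gapdh and 1.82, 3.28 and 3.18 for beta-actin in pools 1, 2 and 3. Of the cap mesenchyme markers 9 of 9 were above background, including Six2 and Cited1. Of stromal markers 4 of 5 were above background, of ureteric bud markers 1 of 5 (Wnt11), and of erythroid, macrophage and endothelial markers 0 of 5 each (limma; before adjustment, 0, 0 and 0 passed at 0.05). The part of stromal RNA in the values below was not tested. Signals of different probe sets cannot be ranked as transcript levels, because probe sets differ in affinity.

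Transcripts of nearly all measured ribosomal protein genes were present above array background in cap mesenchyme. Of the 46 genes 43 were above background, against 54.4% of all genes. Of the 100 probe sets 91 were, against 41.5% of all probe sets (limma, one-sided against the array background, p-values adjusted by Benjamini and Hochberg over all probe sets). The 3 genes not above background were Rps16, Rpl3l and Rpl39l. By subunit, 20 of 20 large-subunit genes outside the stalk, 19 of 20 small-subunit genes, 2 of 2 stalk genes and 2 of 4 paralogs passed. Many members sat at the top of the signal scale: 21, 17 and 18 of the 100 highest probe sets in pools 1, 2 and 3 were members, which made up 0.222% of all probe sets.

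**Figure D1:**
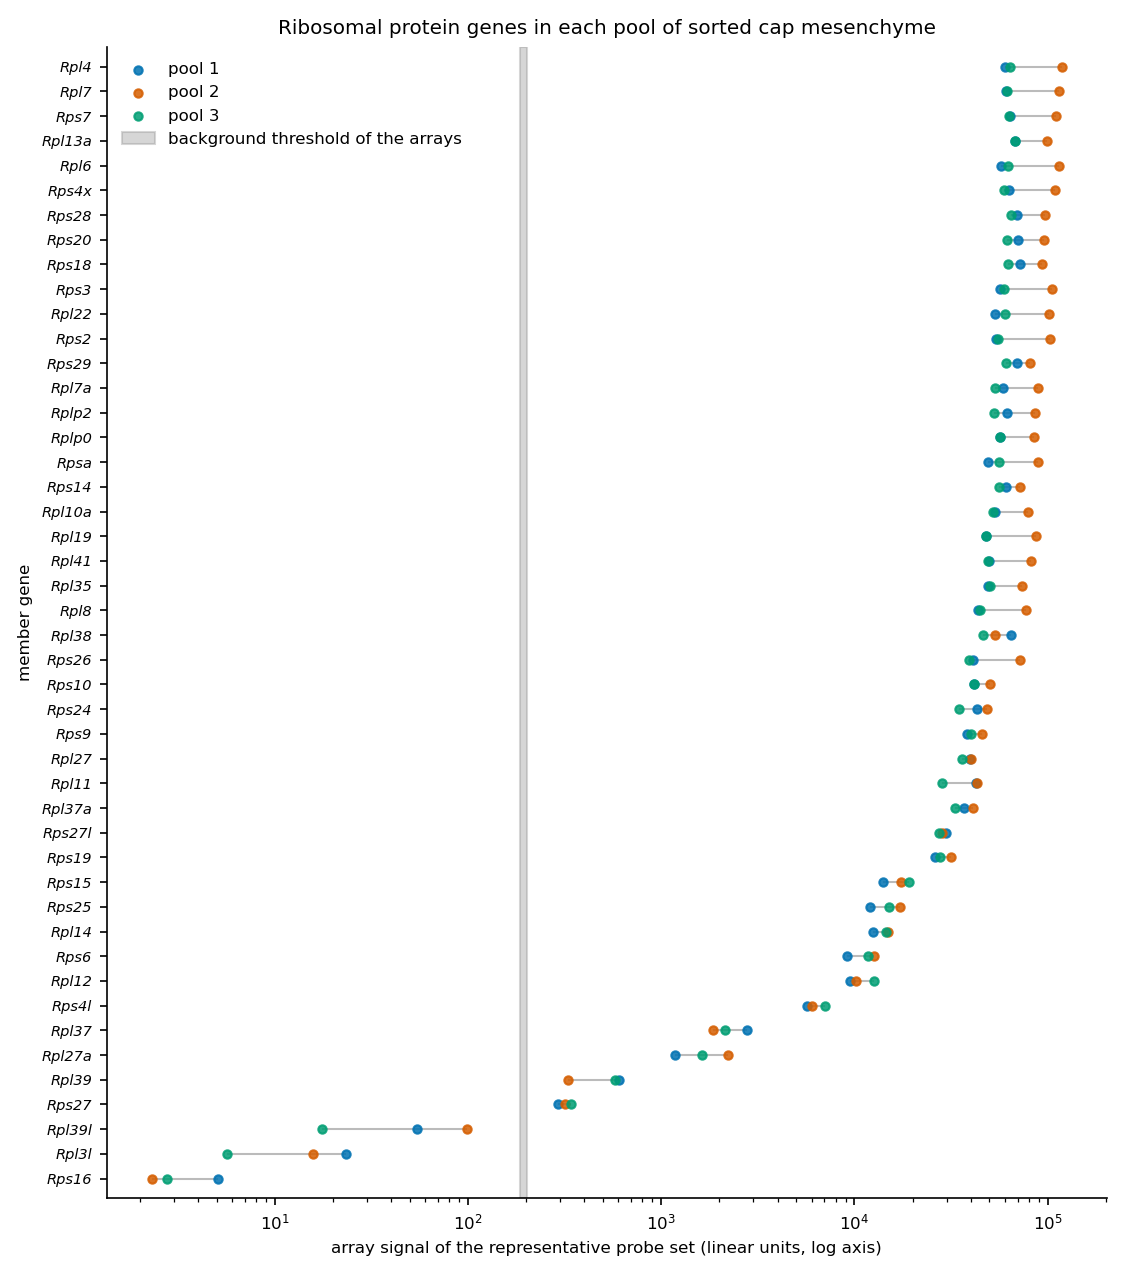
Array signal (linear units, log axis) of the representative probe set of each of the 46 member genes in pools 1, 2 and 3; the grey band spans the background thresholds of the arrays and grey lines join the lowest and highest pool. Rps16, Rpl3l and Rpl39l lie left of the band, and pool 2 is the highest pool for most of the bright genes.

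The stalk of the large subunit is the flexible arm that recruits elongation factors, and Rplp0 is its base while Rplp1 and Rplp2 form its dimers. Rplp0 had signals of 56649, 84970 and 56986 in pools 1, 2 and 3 (mean 66201.5 ± 16255 SD, n = 3; adjusted p = 1.6e-08, limma). Rplp2 had signals of 61685, 86149 and 53095. In both genes pool 2 was the highest and pools 1 and 3 lay close together. Rplp1 was represented only by probe sets with several symbols and is not given a value.

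Large-subunit genes included Rpl4, a protein that lines the exit tunnel, with signals of 60474, 118080 and 63843 in pools 1, 2 and 3. Rpl6 read 57325, 115090 and 62570. These were among the member genes with the widest pool range by their representative probe set, at 1.95-fold for Rpl4 and 2.01-fold for Rpl6, and in both pool 2 alone stood high. Rpl22, an RNA-binding protein dispensable for translation itself, read 53563, 102150 and 60140. The ranges of Rpl22 and Rps2, at 1.91-fold and 1.90-fold, were also among the 5 widest, together with that of Rpl39l, which was not above background.

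Rpl11, which joins Rpl5 and 5S rRNA in a particle that restrains Mdm2 and so links ribosome assembly to p53, differed from this pattern. It had signals of 42369, 43018 and 28285, with pools 1 and 2 alike and pool 3 lower. Rpl5 was represented only by probe sets with several symbols. Rpl38, which has a role in the translation of a subset of Hox mRNAs in the embryo, was highest in pool 1, at 64862, 53178 and 46503. Rpl27 varied little on its representative probe set, at 39452, 40151 and 36163 (coefficient of variation 5.52%). Its other probe sets had coefficients of variation of 13.7% and 13.9%.

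Rpl39, Rpl27a and Rpl37 were above background with signals under 3000 in every pool. Rpl39, a small protein of the exit tunnel, had signals of 601, 329 and 576 on its only probe set (adjusted p = 0.00136, limma), and pool 2 was its lowest. Its call was lost with a threshold at the 99th percentile (adjusted p = 0.847, limma; 0.00077 to 0.847 over its alternatives). Rpl27a read 1184, 2230 and 1617 on the brighter of its probe sets, and Rpl37 read 2795, 1857 and 2142.

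Among small-subunit genes, Rpsa, which also encodes a laminin receptor, had signals of 49411, 89388 and 56314. Rps6, whose protein is a target of S6 kinase below mTOR, read 9182, 12587 and 11743, so pool 1 was the lowest and pools 2 and 3 lay near each other. Rps2 read 54309, 102937 and 55514. Rps9 varied less than most on its representative probe set, at 38416, 45798 and 40124 (coefficient of variation 9.32%). Its other probe sets had coefficients of variation of 16.4% and 7.34%. Rps19, the gene most often mutated in Diamond-Blackfan anaemia, an inherited failure of red cell production, read 26157, 31769 and 27848. Of the 19 genes listed for that disorder 11 were measured, and 11 of 11 were above background, against 54.4% of all genes. The count was 10 without pool 2, without pool 3 and with a threshold at the 99th percentile, where Rps27 did not pass.

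Rps16 was the only small-subunit gene not above background, with signals of 5.07, 2.32 and 2.78 on its only member probe set. Its protein is an essential part of the small subunit, and a low signal on 1 probe set does not show that the transcript is absent. Rps27, with signals of 294, 319 and 341, passed narrowly (adjusted p = 0.0300, limma). Leaving out pool 2 ended this call (adjusted p = 0.138, limma), as did leaving out pool 3 (adjusted p = 0.0940). With a threshold at the 99th percentile its mean log2 difference from the threshold was −0.47 (adjusted p = 1, limma; 0.0058 to 1 over its alternatives).

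Paralogs are copies of ribosomal protein genes that encode variant proteins, some restricted to muscle or testis. Rpl3l, whose protein replaces Rpl3 in heart and skeletal muscle, was not above background, at 23.4, 15.7 and 5.69. Rpl39l, a paralog known from male germ cells, was not above background either, at 54.6, 98.5 and 17.6. Rps27l, a p53 target that resembles Rps27, had signals of 29882, 28570 and 27410, the smallest range between pools among the representative probe sets, at 1.09-fold. On the other probe sets of Rps27l the range was 1.36-fold and 1.20-fold. Rps4l, a copy of Rps4x, read 5657, 6015 and 7082. From the wider paralog list, which held genes outside the membership rule, Rpl22l1 read 22898, 15438 and 15627, and Rpl7l1 read 14097, 20671 and 18789, both above background. For Rpl22l1 pool 1 was the highest, whereas its partner Rpl22 was highest in pool 2. Rpl7, the partner of Rpl7l1, read 61221, 114426 and 61914, and pool 2 was the highest for both.

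The 3 pools differed in the members as a group. The highest signal lay in pool 2 for 67 of the 91 member probe sets above background (73.6%), in pool 1 for 15 and in pool 3 for 9. Of all probe sets above background, pool 2 was the highest for 26.5%, pool 1 for 36% and pool 3 for 37.5%. The median deviation of these member probe sets from their 3-pool mean was −0.10 in pool 1, 0.21 in pool 2 and −0.18 in pool 3 (log2). Pool 2 exceeded the mean of pools 1 and 3 by a median of 0.32, against −0.03 over all probe sets above background. After quantile normalization between the arrays, pool 2 was the highest for 35 of 91 members, against 28.6% of all, and the median difference of the members turned to −0.01. Each pool is a single sample, so no test applies to a difference between pools.

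The excess of pool 2 rose with signal, in the members and in other probe sets alike. For 32 member probe sets with a mean signal over 50000, pool 2 exceeded the mean of pools 1 and 3 by a median of 0.59 (log2), and it was the highest pool for 31. For the other 185 probe sets above background at that signal the median was 0.63, and pool 2 was the highest for 185. Between 30000 and 50000 the medians were 0.29 for 19 members and 0.35 for 369 others. Between 10000 and 30000 they were 0.20 for 21 members and 0.11 for 1862 others. Below 10000 the excess was not seen in either set. The medians were −0.01 for 5 members and −0.02 for 4349 others between 3000 and 10000, and 0.04 for 14 members and −0.08 for 11843 others under 3000. Ordering by pools 1 and 3 alone gave medians of 0.57 for 27 members and 0.68 for 113 others over 50000. After quantile normalization the medians over 50000 were −0.03 for members and −0.01 for others.

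**Figure D2:**
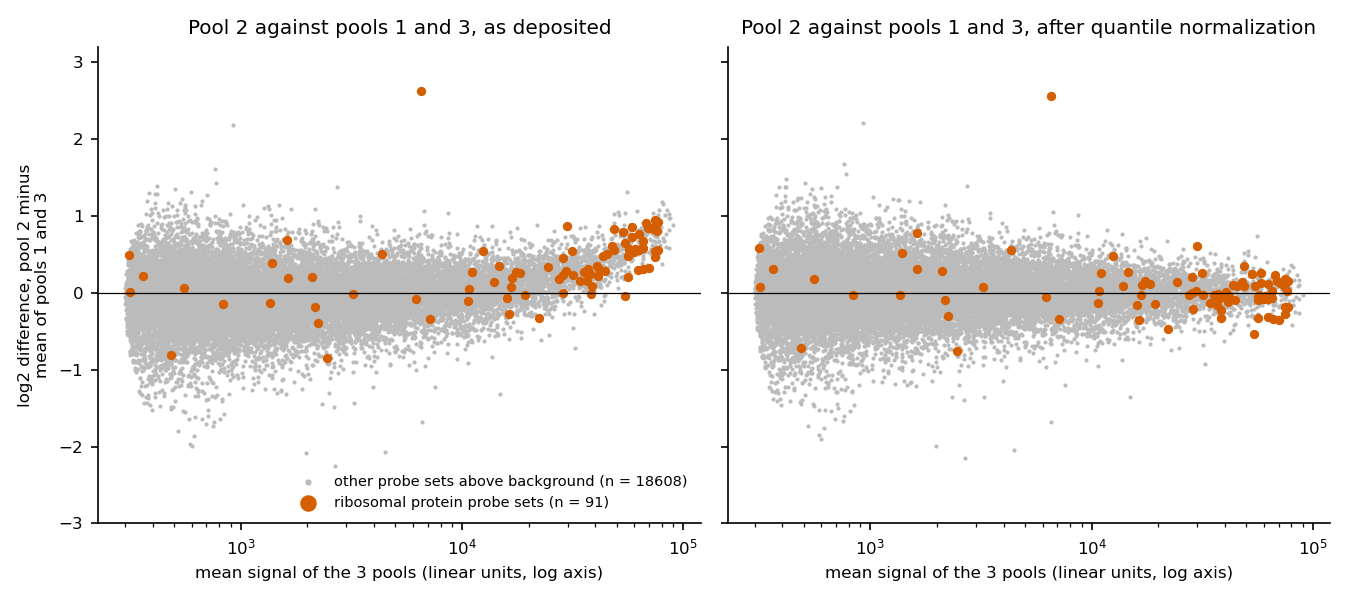
Log2 difference between pool 2 and the mean of pools 1 and 3 against the mean signal of the 3 pools (log axis), for 91 ribosomal protein probe sets (orange) and 18608 other probe sets above background (grey), as deposited on the left and after quantile normalization on the right. On the left both sets bend upward at the highest signals, and on the right they do not. In both panels 1 probe set of Rps10 stands far above the other members. Any points beyond the limits of the vertical axis are not drawn.

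The pools also differed in where their signals ended. In pool 1, 70 probe sets lay at 80% or more of the highest signal of the array, 14 of them members. In pool 2 there were 29, with 4 members, and in pool 3 there were 54, with 9 members. The signals of pools 1 and 3 thus crowded near their maximum more than those of pool 2. The part of this, and of the control ratios given above, in the excess of pool 2 was not tested.

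As deposited, few members had a wide range between pools. A range of at least 2-fold was found for 2 of the 91 member probe sets above background, against 12.6% of all probe sets above background. These shares were not matched for signal. Under a signal of 3000 lay 14 of the 91 members but 11843 of the 18608 others above background. Over all 100 member probe sets the count was 8, against 35.2% of all probe sets, and 6 of these 8 were not above background. With the arrays scaled to the same median signal, 13 of the 91 had such a range, against 15.1% of all probe sets above background. The median coefficient of variation of the members above background was 20.6%, against 17.9% for other probe sets above background.

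The probe sets above background with such a range were that of Rpl6 and 1 of the 6 of Rps10, an _x_at set, which is singled out here after its values were seen. The latter had signals of 483, 22025 and 25504, so pool 1 was 51.1-fold below the highest pool on the log2(signal + 16) scale. The other 5 probe sets of Rps10, a protein of the small subunit head, did not show this: the representative one read 41550, 50586 and 41460. Of 2919 probe sets with a highest signal of at least 10000, 8 (0.274%) had pools at least 10-fold apart, and this was the only member among them.

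The suffix of a probe set tells how specific its design was. A plain _at set matches 1 transcript, _a_at sets match variants of 1 gene, _s_at sets match several transcripts in common, and _x_at sets hold probes that can also bind unrelated transcripts. The members were rich in the less specific kinds, with 40 of 100 ending in _x_at, against 5.42% of all probe sets, and 31 in plain _at, against 80.1%. All 26 _a_at and 3 _s_at member sets and 39 of 40 _x_at sets were above background, against 59.8%, 65.7% and 54.9% of all probe sets of those suffixes. Of the plain _at sets 23 of 31 were, against 37% of all. Plain _at sets thus gave 8 of the 9 member probe sets not above background.

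**Figure D3:**
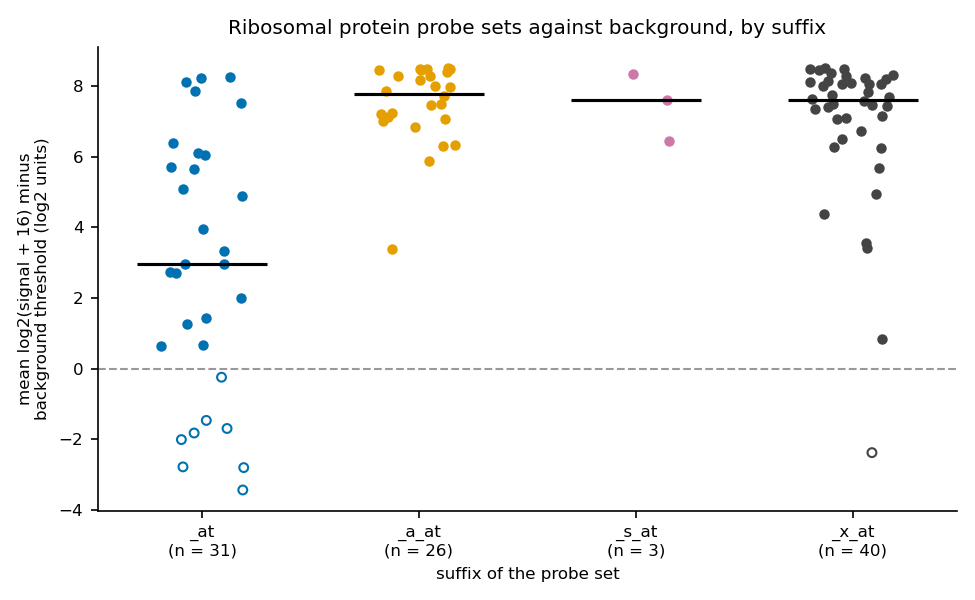
Mean log2(signal + 16) of each member probe set minus the background threshold of its arrays, by suffix; filled points were above background, open points were not, black bars are medians and the dashed line is the threshold. The plain _at sets spread from well below the threshold to the top, while 39 of 40 _x_at sets and all _a_at and _s_at sets lie above it.

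When _s_at and _x_at probe sets were left out of the analysis, 38 of 41 member genes remained above background on 49 of 57 probe sets. Signals by suffix ran from 3.39 to 66201.5 for _at, from 2217.5 to 80799 for _a_at, from 18519 to 71951 for _s_at and from 27.8 to 79187 for _x_at (means of 3 pools). The excess of pool 2 was seen in each kind, with medians of 0.19 for _at, 0.54 for _a_at, 0.26 for _s_at and 0.32 for _x_at members above background. Over all probe sets above background of these suffixes, not matched for signal, the medians lay between −0.06 and −0.02. The kinds also differed in signal. Over all member sets, passing or not, the median signal was 1644 for _at, 47657 for _a_at, 41446 for _s_at and 41483 for _x_at.

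Probe sets of the same gene often disagreed. In 6 genes they lay on both sides of the threshold. The probe sets not above background had mean signals of 15.03 for Rps3, 27.8 for Rps4x, 53.0 for Rps24, 53.1 for Rpl27a, 89.1 for Rps18 and 191 for Rps6, although each gene passed on other probe sets. For Rps18, a protein of the small subunit head, the representative probe set read 72313, 93254 and 62400, while a plain _at set read 199, 12.3 and 55.9. For Rps3, which sits at the mRNA entry of the small subunit, the representative of its 3 probe sets read 56926, 104795 and 59319. A plain _at set of Rps3 read 17644, 19805 and 15315 and was above background, while another plain _at set read 7.1, 19.2 and 18.8 and was not. For Rps4x the values were 62799, 108719 and 59283, against 54.2, 12.9 and 16.2. Rps24, another small-subunit gene, passed on 5 of 6 probe sets. Its representative probe set read 43097, 48335 and 34962, while the set that did not pass read 16.01, 14.6 and 128. For Rpl27a, whose brighter probe set is given above, the other read 24.8, 24.5 and 110.2.

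The direction of pool differences also varied within genes. Of 20 genes with several probe sets above background, 8 had the same highest pool on all of them, and in those 8 it was pool 2. In 8 genes with both plain _at and _x_at sets above background, the excess of pool 2 was larger on the _x_at sets in 6. These sets often differed in signal as well as in suffix. In Rpl35 the _at set had a mean signal of 567 and the brightest _x_at set 57928, whereas in Rpl27 they had 38589 and 34509. The parts of suffix and signal in this count cannot be told apart. In Rps7, the _a_at set read 63678, 110061 and 62767, with pool 2 the highest. The _x_at set of Rps7 read 29848, 19070 and 19244, with pool 1 the highest. In Rpsa the bright _at set exceeded by 0.76 in pool 2, while the dim one, at 774, 778 and 955, differed by −0.14.

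**Figure D4:**
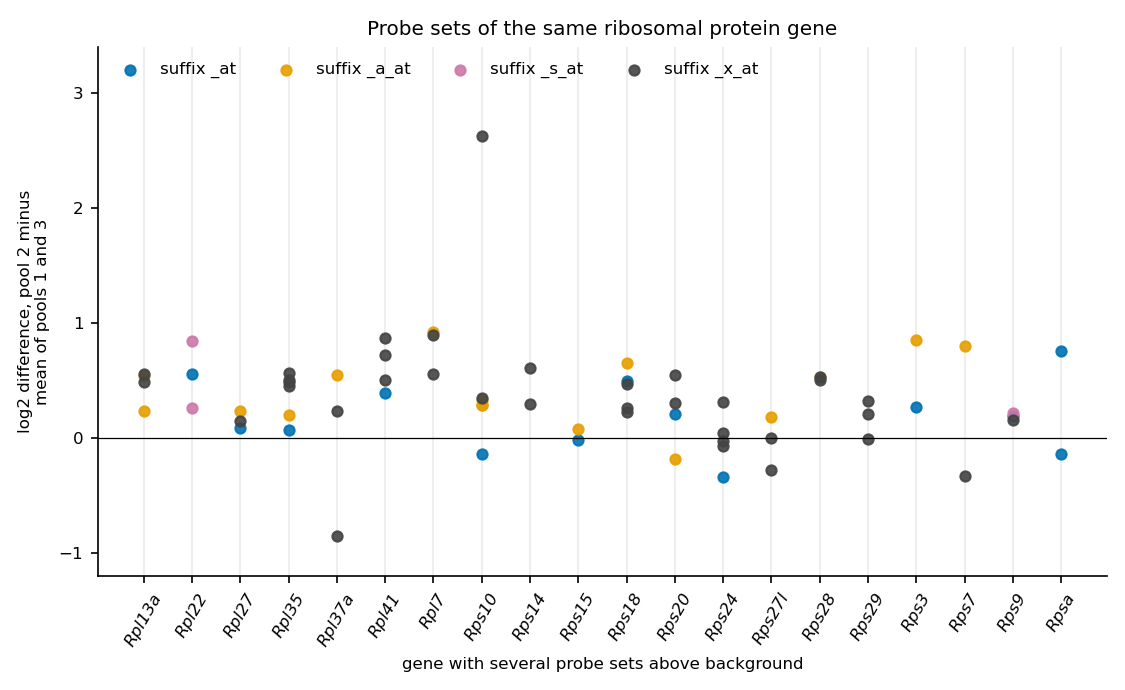
Log2 difference between pool 2 and the mean of pools 1 and 3 for each probe set above background in the 20 member genes with several of them, coloured by suffix. Points of the same gene spread widely in Rps7, Rpl37a and Rpsa, and lie close together in Rps28 and Rps9; 1 probe set of Rps10 lies at 2.63.

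Much of the family could not be assigned to a gene. Of the 47 genes listed for the large subunit, 22 had a single-symbol probe set and 22 others only probe sets with several symbols. For the small subunit list these numbers were 22 and 5 of 34. In all, 110 of the 932 probe sets with several symbols held a ribosomal protein symbol. Of these 104 were above background (94.5%), against 52.7% of all probe sets with several symbols, and pool 2 was the highest for 69 of them. Their median excess in pool 2 was 0.41 (log2).

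Other genes of the translation apparatus were also present. All 29 measured translation factor genes and all 76 genes of mitochondrial ribosomal proteins were above background, as were 34 of 35 ribosome biogenesis genes, against 54.4% of all genes. The exception was Rrp9, a component of the U3 small nucleolar particle, at 535, 143 and 486 (adjusted p = 0.0971, limma). Without pool 2, or with a threshold at the 90th percentile, 35 of 35 biogenesis genes passed. Eef1a1, the elongation factor that delivers tRNA, read 69360, 139283 and 63129. Tpt1, an mRNA with a pyrimidine tract like those of the members, read 64400, 131489 and 65891. In these the excess of pool 2 was 1.07 and 1.01 (log2).

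The excess of pool 2 differed between these lists, as did their signals. Pool 2 was the highest for 24 of 29 translation factor genes, with a median excess of 0.37 (log2), and their signals ran from 3715 to 90591. For 34 biogenesis genes above background it was the highest for 15, with a median of 0.07. For the 76 mitochondrial ribosomal protein genes, whose mean signals did not exceed 21385, it was the highest for 15, with a median of −0.03. Over all genes above background the share with pool 2 the highest was 27.5%. Among the 43 member genes above background pool 2 was the highest for 35, with a median excess of 0.53. Each gene was represented by its probe set of highest mean log2 signal. Over the 91 member probe sets above background the median excess was 0.32.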

How the data were processed

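The authors deposited a linear intensity for each probe set, which GCOS, the Affymetrix array software, had computed per the submitters' processing notes; its version and settings are not given in the sources used here. Tested on the values, each array had a mean of 1500 once 2% was trimmed at either end. The platform annotation supplied gene symbols (34945 with 1 symbol, 932 with several, 9160 with none, 64 controls); all 46 member genes matched RefSeq by Entrez identifier. The genome build of the probe sets is not given in the sources used here.

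On each array log2(signal + 16) was taken relative to the 95th percentile of its background probe sets (symbols of olfactory, vomeronasal and taste receptors, keratin-associated proteins and defensins). limma 3.58.1 (R 4.3.3; intercept only, eBayes with trend) tested whether the mean over 3 arrays exceeded 0, one-sided, with Benjamini-Hochberg adjustment and a threshold of 0.05. The pseudocount shrinks differences between low signals. One passing single-symbol probe set sufficed for a gene, which was represented by its probe set of highest mean log2 signal. The test was tested on simulated data first. Python 3.11.15, pandas 2.3.3 and matplotlib 3.10.9 made tables and plots. The number of arrays limits the precision.

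Members and lists were chosen with earlier results of these data known. Any member could be named; values in every pool are given for stalk genes, genes with a paralog and the paralogs, Rpl11, genes not above background, the 5 largest and 5 smallest pool ranges and the 5 genes split by the threshold with the lowest probe set, besides others chosen after their values were seen. Alternatives were other pseudocounts, thresholds, scalings and suffix types, eBayes without a trend, and leaving out each array.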

Additional observations from a re-analysis of the deposited data

How the results depend on the processing

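The number of member genes above background stayed within 41 to 43 of 46 when all suffix types were kept, and the alternatives without a pool gave 42 to 43. Member probe sets above background numbered 88 to 90 without a pool and 86 with a threshold at the 99th percentile. The count was 49 of 57 when _s_at and _x_at sets were left out, where fewer were tested. Member probe sets with a 2-fold range numbered 8 as reported and 5 with a pseudocount of 64, 19 with arrays scaled to the same median, 2 among those above background and 4 to 7 without a pool; the cause was not tested beyond the fewer samples or probe sets. Alternatives chosen after seeing the data were those on the highest pool: pool 2 was the highest for 70 of all 100 members, 37 after quantile normalization and 39 of 57 without _s_at and _x_at sets. The median deviation in pool 2 was 0.21 over all members and −0.01 after quantile normalization. With a 99th percentile threshold Rps27 lay below it (adjusted p = 1, limma), and the cause was not tested. Scaling to the same median moved the median pool 2 difference of all probe sets above background by 0.03 and quantile normalization by 0.04 (log2). No paired analysis was possible because the 3 arrays form 1 group. Signals near background, as for Rps27 and Rpl39, limit these calls.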
